A study of Sus scrofa domesticus with 36 samples.

Results

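Backfat libraries that carried much skeletal muscle actin RNA were compared with backfat libraries that carried little. The 18 subcutaneous backfat libraries were selected on 1 measured value, the level of ACTA1, the skeletal alpha actin of the muscle thin filament, in CPM (counts of a gene per 1000000 gene counts of its library): the 6 highest were set against the 6 lowest, leaving 6 between them, out of 36 libraries in all. The remaining 18 libraries came from the longissimus dorsi, a muscle running along the spine, of the same pigs. All 3 backfat groups came from untreated commercial crossbred pigs (Danbred 600 by a Newsham line) and the labels give no treatment. The number that ends the line name in the breed label differs in every library, also between both tissues of a pig, so it defines no group. The labels describe 9 slow growers, up to percentile 10 of 1054 pigs, and 9 from percentiles 60 to 70, but give the class of no single pig, so growth was not compared here. They place sampling of backfat between rib 8 and the last rib, and give an age of 16 to 17 days at the weaning stage, while the series text places sampling 3 weeks after weaning. These are at odds if both describe the day of sampling.

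Subcutaneous fat lies over the back muscle, and its main cell, the lipid-storing adipocyte, builds no sarcomeres. The sarcomere is the contractile unit of striated muscle. Its troponin and myosin genes exist in fast and slow forms, which mark fast glycolytic and slow oxidative fibres. In bulk tissue, fewer cells of a type and less RNA per cell cannot be told apart.

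ACTA1 read 24309, 11006, 5586, 5511, 3879 and 2060 CPM in the high group (pigs Sample_731, Sample_391, Sample_176, Sample_911, Sample_242 and Sample_231). It read 1624, 1327, 1323, 834, 447 and 423 CPM in the middle group (pigs Sample_572, Sample_656, Sample_998, Sample_735, Sample_889 and Sample_659). It read 283, 222, 191, 184, 122 and 84.7 CPM in the low group (pigs Sample_114, Sample_491, Sample_77, Sample_186, Sample_835 and Sample_991). The levels form a graded series: the last pig inside the high group had 2060 CPM and the next outside it 1624 CPM, and the last inside the low group had 283 CPM and the next outside it 423 CPM. These values set the groups and are given as a description. Ranking by MYL11, the fast regulatory light chain, or by the summed fast fibre genes put the same 6 pigs in the high group and the same 6 in the low group.

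High libraries held 4049650 to 5254540 gene counts and low libraries 4120670 to 5092120. Counts outside annotated genes averaged 32.6% ± 3.28 in high and 33.8% ± 3.54 in low libraries (SD, n = 6 each). The trimmed-mean scaling factor averaged 0.951 in high and 1.05 in low libraries (two-sided exact permutation p = 0.0195, adjusted p = 0.117 over 6 library measures), and no other library measure passed either. Backfat kept its adipocyte genes in both groups: the 16 adipocyte identity genes with a row summed to 4870 to 7411 CPM in high, 4924 to 6922 CPM in low backfat and 1015 to 1735 CPM in longissimus. The middle backfat library of pig Sample_656 stood apart, with 2990910 gene counts and 53.8% outside genes, and it entered no comparison of high with low.

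**Figure D1:**
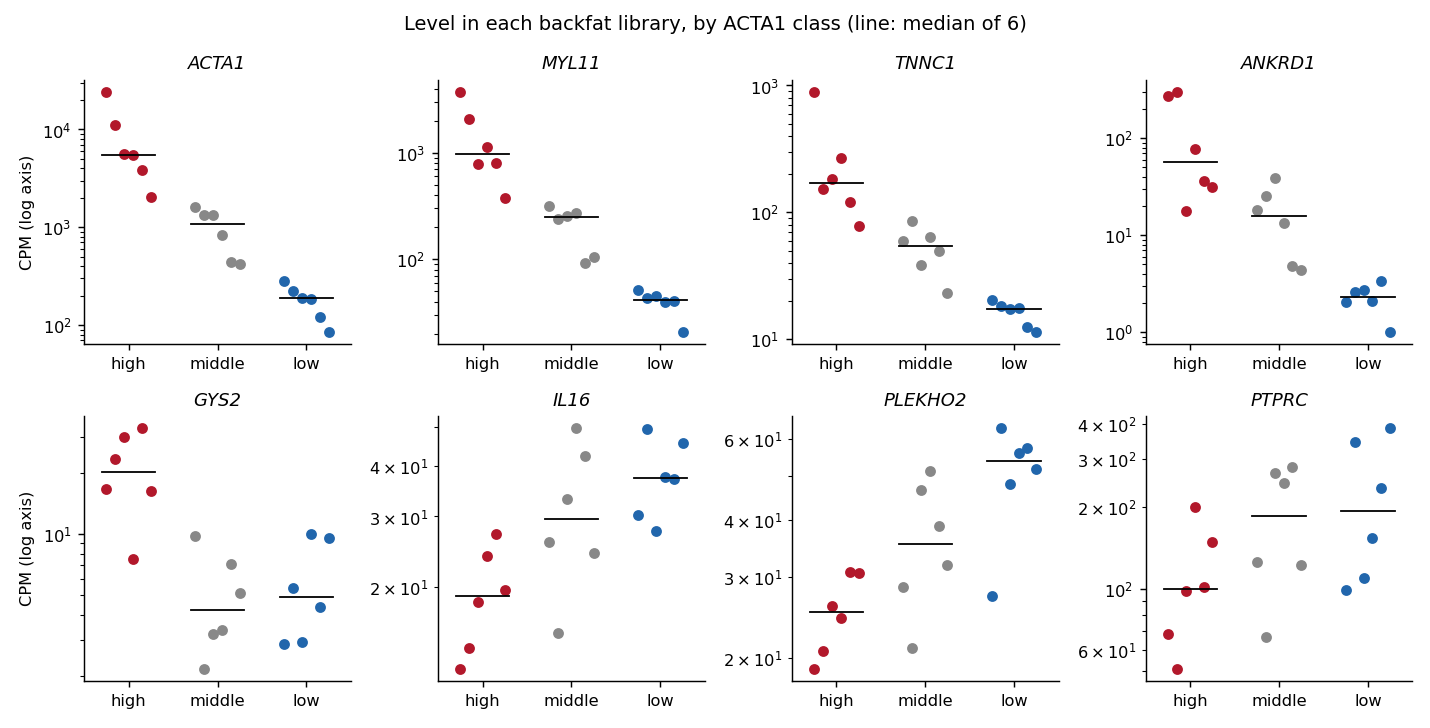
CPM (log axis) of 8 genes in the 6 high, 6 middle and 6 low backfat libraries; each point is 1 library, ordered by ACTA1 within a group, and lines are medians. ACTA1, MYL11, TNNC1 and ANKRD1 step down from high to low without overlap of those groups, GYS2 has 5 of 6 high libraries above all others, and IL16, PLEKHO2 and PTPRC have lower medians in the high group.

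Across 12879 genes, 128 were higher and 6 lower in high than in low backfat (edgeR quasi-likelihood test, Benjamini-Hochberg adjusted p under 0.05), that is 0.994% and 0.0466% of the genes tested. The median log2 difference over all genes was 0.0063. Because ACTA1 set the groups, the p-value of another gene measures its relation to that ranking. Of the 128, 59 were ACTA1 or genes of the muscle lists, whose calls are given as a description only. The other 69 were not, 31 of them with a symbol and 38 without. The groups did not overlap for 119 of the 128 (0.971% of all genes did so in this direction) and for 5 of the 6 lower genes (0.629% of all genes).

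The contractile genes were high in the same libraries as ACTA1. The counts of muscle genes past the threshold come from the contrast that ACTA1 set, and nothing is read from them beyond the description. All 6 tested fast fibre genes were past the threshold, all 7 slow fibre genes, 24 of 27 sarcomere genes, 9 of 11 triad and calcium release genes and 9 of 18 genes of muscle glycolysis and phosphocreatine. MYL11 read 3738, 2095, 791, 1136, 807 and 374 CPM in high, against 51.6, 43.1, 44.8, 39.4, 40.5 and 20.7 CPM in low backfat. TNNC1, the slow troponin C, read 892, 154, 185, 269, 120 and 77.6 CPM in high, against 20.5, 18.5, 17.3, 17.5, 12.6 and 11.4 CPM in low backfat. Every high library was above every low one for both genes, and the library of pig Sample_731 had the most of both. ENO3, the muscle enolase, averaged 1474 ± 1403 CPM in high and 80.5 ± 8.07 CPM in low backfat (SD, n = 6 each). DES, the intermediate filament desmin, averaged 774 ± 744 CPM in high and 50.9 ± 16.7 CPM in low backfat, and it was the 1 gene of the smooth muscle and pericyte list past the threshold.

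Myosins and actins of developing muscle were part of the set. MYH8, the perinatal myosin, averaged 2020 ± 1787 CPM in high and 62.5 ± 24.5 CPM in low backfat, and ACTC1, the cardiac actin also made by immature muscle, averaged 113 ± 67.1 CPM in high and 5.99 ± 4.30 CPM in low backfat. Myosin heavy chain genes are near-identical copies, and several have no named row here, so counts of MYH6 and MYH8 are uncertain. In all, 3 of 8 tested myogenic and developmental genes were past the threshold, and 0 of 2 neuromuscular junction genes.

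Outside the muscle lists, 12 genes with the largest differences were named. The choice required a symbol, a call, at least 10 CPM and groups that did not overlap. They were ANKRD1, DUSP26, ATP1B4, DHRS7C, HHATL, ANK1, ANO5, MYO18B, BBS5, FITM1, HSPB8 and ITGB1BP2. ANKRD1, a stretch-responsive ankyrin repeat protein of striated muscle, read 273, 300, 17.9, 77.2, 36.0 and 31.4 CPM in high, against 2.04, 2.56, 2.75, 2.09, 3.40 and 0.999 CPM in low backfat. Its log2 difference was 5.98 (SE 0.836, edgeR adjusted p = 0.00179). The order within the high group differed from that of ACTA1, since pig Sample_391 exceeded pig Sample_731 and pig Sample_176 was lowest. ANKRD1 overlaps RPP30 in the gene table, and the kit is not stated to keep strand, so reads of overlapping genes could not be told apart.

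Others of the 12 belong to the membranes of the fibre. ATP1B4, a muscle member of the sodium pump beta family, read 84.3, 30.3, 16.3, 25.3, 21.7 and 7.23 CPM in high, against 0.480, 0.513, 1.08, 1.74, 0.364 and 0.200 CPM in low backfat (log2 difference 5.48, SE 0.688, adjusted p = 0.00108). DHRS7C, a dehydrogenase of the sarcoplasmic reticulum, averaged 26.6 ± 26.3 CPM in high and 1.02 ± 0.432 CPM in low backfat. ANO5, an anoctamin of membrane repair, averaged 15 ± 16.7 CPM in high and 0.756 ± 0.237 CPM in low backfat, and ANK1, a membrane skeleton anchor, 73.5 ± 78.6 CPM in high and 3.52 ± 0.992 CPM in low. That no high library fell within the low range for any of them was a condition of their choice.

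FITM1, a muscle protein of lipid droplet formation, read 33.0, 15.9, 9.81, 11.2, 7.0 and 3.90 CPM in high, against 1.32, 0.410, 0.982, 1.39, 2.18 and 0.799 CPM in low backfat (log2 difference 3.69, SE 0.556, adjusted p = 0.00291). HSPB8, a small heat shock protein, averaged 39.9 ± 39.9 CPM in high and 4.97 ± 1.88 CPM in low backfat (log2 difference 3.22, adjusted p = 0.0274), and it was the 1 of 13 heat shock genes past the threshold. HSPB8 was called in 13 of 24 alternative settings, with adjusted p between 3.03e-06 and 0.0793, and lost the call without high pig Sample_391 or without any 1 of the 6 low pigs. BBS5, a BBSome subunit of the primary cilium, averaged 141 ± 140 CPM in high and 9.13 ± 2.61 CPM in low backfat. Its neighbour KLHL41, a sarcomere gene, has no named row here, so counts merged or shared between the neighbours cannot be told apart. The same holds for EFCAB7, at 336 ± 205 CPM in high and 127 ± 13.7 CPM in low backfat, and its neighbour PGM1. EFCAB7 lost its call without high pig Sample_391 or any low pig but Sample_114, with adjusted p of 0.0706 to 0.0962.

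**Figure D2:**
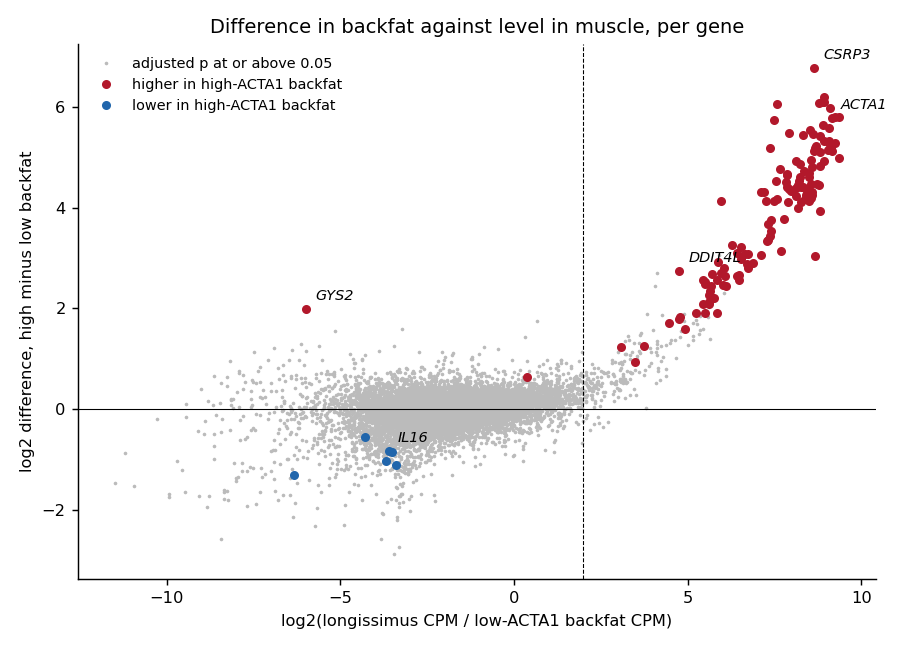
Each point is 1 gene: log2 of its mean longissimus CPM over its mean CPM in low backfat (x) against the log2 difference of high minus low backfat (y), with the dashed line at a ratio of 4; 6 genes with 0 in longissimus are not drawn. The genes called higher lie right of the dashed line with the exception of GYS2 and MYH7B, and the 6 called lower lie to the left; low backfat enters both axes.

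Genes were then grouped by their level in longissimus relative to low backfat. The low backfat mean enters both this ratio and the difference, so the split is a description. Among 328 genes at least 4 times higher in longissimus than in low backfat, 126 were called higher, none lower, and 97.6% had a positive difference. Among 1143 genes above low backfat but under 4 times, 1 was called higher (MYH7B, a slow myosin heavy chain). Among 11408 genes at or below the low backfat level, 1 was called higher (GYS2) and 6 lower, and 46.9% had a positive difference. Outside the muscle lists, 68 of the 69 higher genes were at least 4 times higher in longissimus. With the 6 middle backfat libraries in place of the low ones, an alternative added after seeing the data, 126 of 322 genes at least 4 times higher in longissimus were called higher and none lower. The other 2 higher genes (GYS2 and MYH7B) and the 6 lower genes were among the 11428 at or below the middle level.

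GYS2, the liver-type glycogen synthase, was the exception. It read 16.7, 23.3, 29.9, 7.53, 32.9 and 16.2 CPM in high, against 2.88, 5.44, 2.95, 9.97, 4.37 and 9.49 CPM in low backfat, and 9.77, 2.17, 3.24, 3.37, 7.08 and 5.10 CPM in the middle libraries. The high library of pig Sample_911 lay within the low range. In longissimus GYS2 did not exceed 0.275 CPM in the 12 pigs. The log2 difference was 1.98 (SE 0.384, edgeR adjusted p = 0.0207), and the call held in 15 of 24 alternative settings, with adjusted p up to 0.318. It was lost without high pig Sample_391, Sample_176 or Sample_242 and without low pig Sample_491, Sample_77 or Sample_835, with adjusted p of 0.0510 to 0.0665. GYS2 did not follow ACTA1 among the middle 6 pigs (slope 0.0056, unadjusted edgeR p = 0.987).

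The lower genes were PLEKHO2, RAB20, EEIG1, IL16 and 2 without a symbol. IL16, a cytokine made by lymphocytes, read 12.5, 14.1, 18.3, 24, 27.2 and 19.7 CPM in high, against 30.2, 49.5, 27.6, 37.7, 37.1 and 45.8 CPM in low backfat (log2 difference -0.84, SE 0.185, edgeR adjusted p = 0.0490). PLEKHO2, a pleckstrin homology domain protein, read 18.9, 20.7, 26.0, 24.4, 30.9 and 30.7 CPM in high, against 27.4, 63.4, 48.0, 56.0, 57.4 and 51.8 CPM in low backfat (log2 difference -0.85, SE 0.169, adjusted p = 0.0240). The IL16 groups did not overlap, which was a condition of its choice, while the low library of pig Sample_114 lay within the high range for PLEKHO2. EEIG1 averaged 57.4 ± 8.73 CPM in high and 93.6 ± 13.3 CPM in low backfat, and RAB20, a small GTPase, 3.17 ± 0.873 CPM in high and 7.41 ± 2.5 CPM in low. PLEKHO2, IL16, RAB20 and EEIG1 were called in 13, 11, 10 and 8 of 24 alternative settings. Leaving out 1 of the 12 libraries removed the call of PLEKHO2 in 9 cases, IL16 in 8, RAB20 in 9 and EEIG1 in 10, with adjusted p of 0.0515 to 0.135. The count of lower genes ran from 1 to 29 when 1 library was left out: it was 29 without low pig Sample_114, 9 without low pig Sample_991, 3 without high pig Sample_242 or low pig Sample_77, 2 without high pig Sample_391, and 1 without high pig Sample_731, without high pig Sample_176, and without each of the low pigs Sample_491, Sample_186 and Sample_835.

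**Figure D3:**
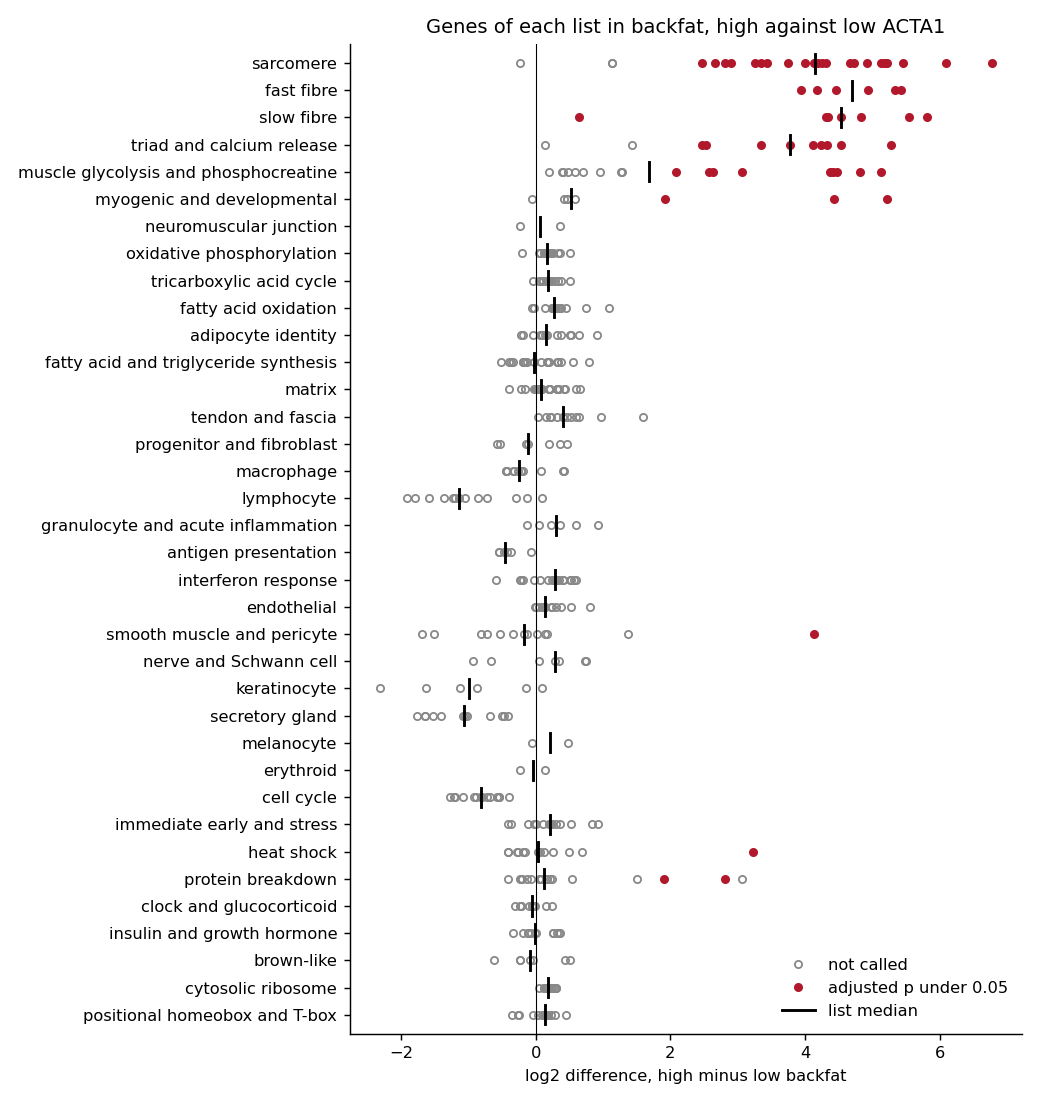
Log2 difference of high minus low backfat (x) for every tested gene of 36 lists (rows); filled points passed an adjusted p of 0.05, open points did not, and bars are list medians. The filled points lie in the muscle lists, apart from DES in the smooth muscle list, HSPB8 in the heat shock list and 2 genes of protein breakdown.

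No gene of the mitochondrial and lipid lists passed the test. Of all genes tested 1.04% did, so an absence of calls in lists this short says little. None of 19 oxidative phosphorylation, 15 tricarboxylic acid cycle or 18 fatty acid oxidation genes passed. Their median log2 differences were 0.18, 0.18 and 0.28, against 0.0063 over all genes. The difference was positive for 18 of 19, 14 of 15 and 16 of 18 of them. None of 14 adipocyte identity genes passed (median 0.15, 11 positive) and none of 19 lipid synthesis genes (median -0.027, 9 positive). PLIN1, the lipid droplet coat of adipocytes, averaged 742 ± 175 CPM in high and 770 ± 170 CPM in low backfat. In protein breakdown 2 of 18 genes passed, of which CAPN3, the muscle calpain, had 74.0 ± 45.9 CPM in high and 22.3 ± 3.18 CPM in low backfat, and FBXO40 was the other. Outside these lists, FITM1 and SLC25A4 were among the genes that passed. SLC25A4, the ADP/ATP carrier of the inner mitochondrial membrane in heart and muscle, averaged 167 ± 115 CPM in high and 54.4 ± 12.6 CPM in low backfat (log2 difference 1.80, SE 0.373, adjusted p = 0.0337). It lost the call when any 1 of 8 libraries was left out (high pigs Sample_391, Sample_176 and Sample_911 and every low pig but Sample_114), with adjusted p of 0.0546 to 0.0923.

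Connective tissue genes did not pass either. The 26 matrix genes had a median of 0.085, and all 13 tendon and fascia genes had a positive difference with a median of 0.41. Without high pig Sample_391 FMOD was at -0.055 and COL11A1 at -0.11, so not all 13 stayed positive. FMOD, a small proteoglycan of collagen fibrils, ranged from 525 to 6223 CPM in high, with a median of 1776, and from 696 to 2372 CPM in low backfat, with a median of 1802. The highest of these values was in pig Sample_391.

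Lists of other cell types and states differed in sign, and none of their genes passed, where 1.04% of all genes tested did. Over all genes the median log2 difference was 0.0063. The difference was negative for 12 of 13 lymphocyte genes (median -1.14), 6 of 6 antigen presentation genes (median -0.45), 12 of 12 secretory gland genes (median -1.06), 5 of 6 keratinocyte genes (median -1.0) and 15 of 15 cell cycle genes (median -0.81), and for 9 of 12 macrophage genes (median -0.24). It was also negative for 10 of 12 clock and glucocorticoid genes (median -0.053) and 5 of 7 brown-like genes (median -0.084). It was positive for 16 of 21 interferon response genes (median 0.29) and 5 of 6 granulocyte and acute inflammation genes (median 0.30). The same held for 12 of 13 endothelial (median 0.14), 5 of 7 nerve and Schwann cell (0.28) and 14 of 14 cytosolic ribosome genes (0.18). It held too for 11 of 15 immediate early and stress genes (median 0.21). Melanocyte genes were split, with 1 of 2 positive. Without low pig Sample_491 the gland gene CPHL1 was at 0.10 and the keratinocyte gene KRT15 at 0.089. Not all gland and keratinocyte genes with a negative difference thus kept it. The summed lymphocyte list ran from 181 to 623 CPM in high, with a median of 347, and from 327 to 967 CPM in low backfat, with a median of 534. PTPRC, the leukocyte antigen CD45, read 68.4, 51.0, 98.7, 200, 101 and 149 CPM in high, against 99.3, 346, 109, 154, 234 and 386 CPM in low backfat. The groups overlapped for PTPRC and for the sums of the lymphocyte, antigen presentation, gland, keratinocyte and cell cycle lists. The part of these cell types in the lower values of IL16 and the other called genes was not tested.

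The longissimus of the same 12 pigs was compared to see whether the pigs differed in muscle itself. Of 10439 genes, 0 were called in either direction (0%), the lowest edgeR adjusted p was 0.450, and 629 had an unadjusted p under 0.05, while DESeq2 called 3 higher and 2 lower. Leaving out low pig Sample_991 gave 1 higher gene. ACTA1 in longissimus averaged 114840 CPM in high and 91249 CPM in low pigs (exact permutation p = 0.0974, adjusted p = 0.195). Of the 127 genes higher in backfat that were tested in longissimus, 98 had a positive difference there too, with a median log2 difference of 0.21, against 49.3% of all genes and a median of -0.0032. The main test of the difference between tissues did not pair both tissues of a pig. This test called 161 of 13361 genes more positive in backfat (1.2%) and 2 more negative (0.015%). With the pig as a block these counts were 148 and 1. Since the backfat side is the contrast that ACTA1 set, its count is a description: it covered 111 of the 128 higher genes and 0 of the 6 lower genes.

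The 6 middle libraries, which entered neither group, gave a further view. Along log2 ACTA1 within them, 0 of 13203 genes passed the edgeR test (0%) and 707 had an unadjusted p under 0.05. Leaving out ACTA1 itself, the slope was positive for 108 of the 121 higher genes tested there, against 49.0% of all genes, and negative for 4 of the 6 lower genes.

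Muscle RNA in each library was expressed as a share of that pig's own longissimus, by the median over sarcomere, fibre type and triad genes with at least 100 CPM in longissimus. The share was 19.3, 9.38, 4.37, 4.50, 3.49 and 2.06% in the high pigs in ACTA1 order, with means of 7.18% in high, 1.65% in middle and 0.380% in low pigs. Longissimus ACTA1 averaged 51237 CPM in middle pigs, against 114840 in high and 91249 in low pigs. It was 21527 CPM in pig Sample_572 and 19267 CPM in pig Sample_735. How this bears on comparing middle pigs with their own longissimus was not tested. An expected level was computed for each gene from the share, the low level and own longissimus. For 227 genes at least 4 times higher in longissimus and at 100 CPM or more there, 212 (93.4%) were observed within 2-fold of it in the high group, 9 were above and 6 below. Genes that set the share were among the 227, and the share came from the same high libraries. The closeness is therefore partly built in and is given as a description. Pig Sample_731 weighs most in the mean of the high group, so a form with equal weight per pig was added.

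For equal weight per pig, the mean low backfat level was subtracted from both tissues and the mean low share from the share. On this measure, 130 genes at least 20 times higher in longissimus were set against the share of their library. A further 7 of 137 such genes were at or under the low level in at least 1 high pig, had no value and were left out. The slow fibre genes lay above it, with a median log2 value of 0.68 over 6 genes, of which 5 were positive. The fast fibre genes had a median of -0.36 over 6 genes, the triad genes -0.40 over 10 genes, and glycolysis and phosphocreatine -0.43 over 10 genes, with 0 of 10 positive. The sarcomere list was near 0, with a median of 0.027 over 24 genes, which is largely built in. Sarcomere genes were 25 of the 47 genes that set the share in pig Sample_391 and 28 of 50 in pig Sample_911. Fibre type and triad genes made up the rest, so the list medians are given as a description.

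DDIT4L, an inhibitor of mTOR signalling, had the highest value among named genes, 2.06 ± 1.29 (SD, n = 6). Its call in backfat was lost without any 1 low pig but Sample_114 (adjusted p 0.0513 to 0.0680). With the mean low backfat level subtracted from both tissues, DDIT4L reached 152, 7.33, 28.7, 34.6, 9.35 and 7.54% of own longissimus in the high pigs in ACTA1 order. CSRP3, the muscle LIM protein, reached 115, 105, 21.3, 15.9, 8.96 and 1.55% on the same measure. Backfat of pig Sample_731 thus held more of both in CPM than its own muscle, and backfat of pig Sample_391 more CSRP3. Of the 130 genes, 9 were above the share in 6 of 6 pigs and 29 below it in 6 of 6. ATP1B4 was among the 9 (1.53 ± 0.372), as were TNNI1, TNNT1 and MYBPC1, the slow-type myosin binding protein C. Slow fibre genes did not all behave so: 2 of the 6 were above in 6 of 6 pigs and 1 was below in 6 of 6. MYL3 was above in 4 pigs and MYH6 in 3. CARNS1, the carnosine synthase, lay lowest of the 130 kept, at -2.27 ± 1.68, and was among the 29.

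**Figure D4:**
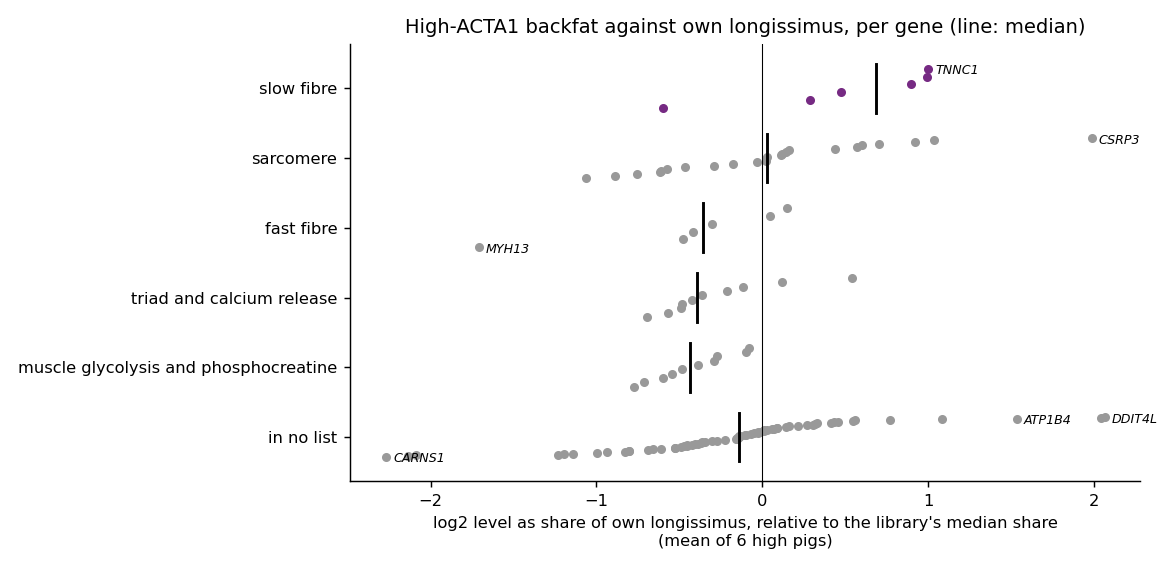
For genes at least 20 times higher in longissimus than in low backfat, the log2 level as a share of own longissimus relative to the median share of the library (x, mean of 6 high pigs), by list (rows). The mean low backfat level and mean low share were subtracted. Sarcomere, fibre type and triad genes set the share, so a sarcomere median near 0 is largely built in. Points are genes and bars are list medians. The slow fibre median is 0.68, and the medians of fast fibre, triad and glycolysis genes lie between -0.36 and -0.43.

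The slow to fast ratio was then compared within pigs, as log2 of the summed CPM of TNNC1, TNNI1, TNNT1 and MYL3 (slow) over TNNC2, MYL1 and MYL11 (fast). In the high pigs it averaged -2.36 ± 0.573 in backfat and -3.44 ± 0.418 in own longissimus (SD, n = 6). The difference was 1.08 ± 0.545, a 2.12-fold higher ratio in backfat, higher in 6 of 6 pigs (two-sided exact sign-flip permutation p = 0.03125, the smallest that 6 pigs allow). Per pig it was 1.05, 0.76, 1.93, 1.54, 0.66 and 0.56 in ACTA1 order, so every high pig had the higher ratio in backfat.

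In the low pigs the ratio was higher in backfat in 6 of 6, by 0.78 ± 0.530, and in the middle pigs in 4 of 6, by 0.34 ± 1.10; these are values without a test, and whether groups differ in this was not tested. The ratio in longissimus itself averaged -3.44 ± 0.418 in high and -2.60 ± 0.565 in low pigs (SD, n = 6 each), and in backfat -2.36 ± 0.573 in high and -1.82 ± 0.202 in low pigs. The fast sum in low backfat was between 69.6 and 147 CPM. Subtracting the mean low backfat level from the high libraries left the difference at 1.04.

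**Figure D5:**
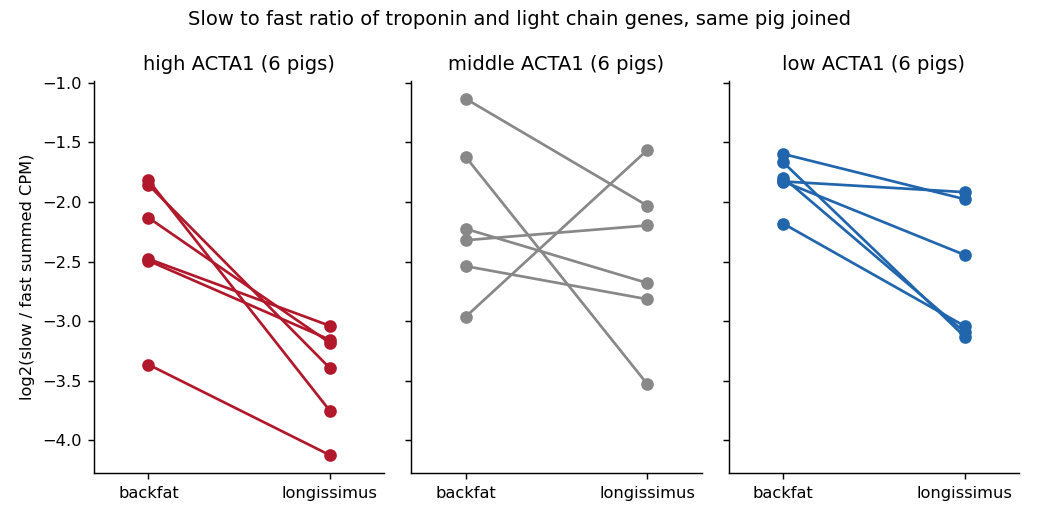
Log2 ratio of slow to fast troponin and light chain genes (y) in backfat and in longissimus of the same pig (joined points), for 6 high, 6 middle and 6 low pigs. All 6 lines of the high pigs and of the low pigs fall from backfat to longissimus, as do 4 of 6 in the middle pigs.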

How the data were processed

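The authors deposited 1 table of expected counts per gene, not normalised, for 25322 pig genes in 36 libraries. Per the submitters' processing notes, GSNAP and HTSeq were used. Versions, build and gene models: not given in the sources used here. Per the labels' protocols, total RNA was prepared with a TruSeq kit and read for 100 nt from both ends. The deposited values are multiples of 0.5 (35.1% not whole) and were rounded for tests. A further 5 lines naming no gene stayed out of library sizes; counts in no gene made up 34.5% ± 5.60 of a backfat library (SD, n = 18). A symbol was found for 11804 gene IDs. CPM is per 1000000 gene counts.

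Differences were tested with edgeR 4.0.16 in R 4.3.3 (robust quasi-likelihood, trimmed-mean factors, default filter), with Benjamini-Hochberg adjustment over all genes tested and a threshold of 0.05; the SE is the log2 difference over the square root of F. On simulated counts of 12685 genes for high against low backfat, 66% of 2-fold changes (log2 of 1) and 97.0% of 4-fold changes (log2 of 2) were recovered, and 2.99% of calls were false. Changes were placed only in genes above a minimum level in low backfat, and genes were drawn independently. DUSP26, at 0.279 CPM in low backfat, lay below that level, and many genes here vary together. The rates therefore need not hold for such genes. DESeq2 1.42.0 was an alternative. Permutation tests used SciPy 1.17.1 and figures Matplotlib 3.10.9. Libraries are separate animals. Both tissues of a number come from 1 pig, so numbers pair them: deviations from group means correlated at 0.264 on average (0.0918 to 0.369) over 10125 genes.

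The members, the 36 lists and the tests were chosen with earlier results of these data known. Of 730 list entries, 503 matched a row, and MYLPF was matched as MYL11. MYL2, TNNI2 and TNNT3 were not matched, so the slow to fast ratio rests on the genes given. Named genes outside the muscle lists have a symbol, an adjusted p under 0.05, at least 10 CPM and groups that do not overlap (the 12 largest in each direction). Added to these were called genes at or below the low backfat level in longissimus and up to 3 genes of each list by mean CPM. PLEKHO2, RAB20, MYH7B, EFCAB7, TNNI1, MYL3, CSRP3, ANKRD2, DDIT4L, CAPN3, FBXO40, SLC25A4, TMEM38A, MACROD1, RAMP1, PDE4DIP, ADAMTS8, CARNS1 and MYBPC1 were named after their values were seen; 1 further gene so chosen is not reported here. The equal-weight comparison with own longissimus was added after seeing the data; 3 forms of it were computed.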

Additional observations from a re-analysis of the deposited data

Results flagged for a closer look

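Within the 6 high or the 6 low libraries, a value was singled out where the gap between the highest or lowest library and its neighbour was a larger part of the group's range in CPM than Dixon's critical value for 6 samples. Of 270 combinations of gene and group, 47 were singled out. The usual chance rate of about 5% of groups assumes unrelated genes. Many genes here vary together and were named from the contrast that ACTA1 set, so no excess over chance is read from the count. On the log2(CPM + 0.5) scale the number was 14, a scale tried after the first count was seen, and the CPM values are given here.

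In 25 cases the value was the highest of the high group, in pig Sample_731, which has the most ACTA1. Outside the muscle lists these were DUSP26 at 38.0, ATP1B4 at 84.3, DHRS7C at 77.7, ANK1 at 227, ANO5 at 47.8, BBS5 at 418, ITGB1BP2 at 35.4, EFCAB7 at 732 and DDIT4L at 134 CPM. They also included CAPN3 at 165, SLC25A4 at 392, TMEM38A at 108, MACROD1 at 92.6, RAMP1 at 65.0 and PDE4DIP at 161 CPM. Within the muscle lists they were TPM2 at 3132, DES at 2251, TNNC2 at 1484, MYH6 at 1753, TNNC1 at 892, TNNT1 at 722, TNNI1 at 537, MYL3 at 230.4, CSRP3 at 138 and ANKRD2 at 71.1 CPM. Pig Sample_731 was also lowest of the high group for OAS2, an interferon-induced enzyme, at 385 CPM.

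Pig Sample_391 was highest of the high group for COL1A2 at 32045, FMOD at 6223, COL11A1 at 2058, ZIC1 at 45.1, ADAMTS8 at 28.4 and SLC4A1 at 4.28 CPM. The first 3 are fibrillar collagen or fibril-associated genes. Pig Sample_176 was highest for the endothelial genes KDR at 498 and ENG at 395 CPM, pig Sample_911 for KRT15 at 91.1 CPM and pig Sample_242 for KIT at 92.5 CPM.

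In the low group, pig Sample_491 was highest for TPM2 at 374, ACTC1 at 14.6, TAGLN at 758, ACTA2 at 796, KRT15 at 133 and CAPN1 at 279 CPM. TAGLN and ACTA2 mark smooth muscle. Pig Sample_991 was highest for FASN at 699.7 and HBB at 188 CPM and lowest for PER1 at 185 CPM. Pig Sample_114 was highest for KDR at 405 CPM and pig Sample_835 for IGFBP6 at 591 CPM.

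The difference between high and low pigs differed between backfat and longissimus for 17 of the named genes outside the muscle lists. The edgeR test of that difference (adjusted p under 0.05) did not pair both tissues of a pig. The backfat side is the contrast that ACTA1 set. The log2 difference in backfat exceeded that in longissimus by 4.14 for ANKRD1, 5.47 for DUSP26, 5.37 for ATP1B4, 4.44 for DHRS7C, 4.47 for HHATL, 4.30 for ANK1 and 4.56 for ANO5. It did so by 4.08 for MYO18B, 3.89 for BBS5, 3.15 for FITM1, 2.80 for HSPB8, 2.79 for ITGB1BP2, 3.41 for DDIT4L, 1.73 for CAPN3, 2.20 for TMEM38A, 2.42 for RAMP1 and 3.07 for PDE4DIP. With the pig as a block, 4 of the 17 did not pass: ANKRD1 (adjusted p = 0.461), HSPB8 (0.303), DDIT4L (0.118) and RAMP1 (0.215). ACTA1 and genes of the muscle lists are left out here, since their calls are given as a description only.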

How the results depend on the processing

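The count of higher genes in backfat stayed within 1.5 times of 128 in 23 of 25 alternatives; it was 77 for top 9 against bottom 9 and 268 for a slope on log2 ACTA1 over 18 pigs. It ran from 101 to 148 when 1 library was left out. The count of lower genes (6) was 16 with library totals alone, 30 with DESeq2, 31 with the slope, 2 for top 4 against bottom 4, and 3 for top 9 against bottom 9, for scaling without genes high in muscle and with the share outside genes as a covariate. It was 1 without pigs Sample_731 and Sample_391, an alternative chosen after seeing the data, where 115 of 120 higher genes were shared with the 128. Leaving out 1 library gave 1 to 29 lower genes. In longissimus, DESeq2 called 3 higher and 2 lower, and leaving out 1 library gave 0 to 1 higher. The tissue difference had 161 higher and 2 lower calls, and 148 and 1 with the replicate block (132 of all 163 shared); the lower count was 0 with DESeq2 size factors, with library totals and without a filter. The slow to fast difference stayed between 0.914 and 1.19 without each high pig, with exact permutation p = 0.0625, the smallest that 5 pigs allow, and was 1.06 as a per-gene mean and 1.04 with the low level subtracted (added after seeing the data). The alternative that adds myosin heavy chains was not run, since those genes have no named row here. The cause of these changes was not tested.

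Direction was checked for the 135 named genes only, and none of them with a call in any setting changed it. Among 135 named genes, 35 that were called in no alternative changed sign in at least 1, with adjusted p of 0.779 or more each time. With library totals the log2 difference was -0.0068 for MTMR14, -0.11 for ATP5F1A, -0.029 for SDHA, -0.0027 for HADH, -0.053 for PLIN1, -0.068 for ACSL1 and -0.081 for POSTN. It was -0.042 for CBLB, -0.040 for PECAM1, -0.086 for CNP, -0.15 for DUSP1, -0.024 for HSP90AB1 and -0.072 for UBB. With the covariate ATP5F1A was at -0.012. The slope was 0.013 for MEF2D, 0.0085 for CAV1, -0.027 for ACSL1, 0.0081 for PDGFRA, -0.013 for CCL2, 0.0068 for MITF, 0.019 for KLF9 and 0.017 for EBF2. For top 4 against bottom 4 it was -0.0068 for MTMR14, 0.014 for CAV1, -0.23 for ACSL1, -0.15 for POSTN, 0.33 for KRT15, -0.13 for HBB and 0.040 for HSP90AA1. For top 9 against bottom 9 it was -0.058 for ATP5F1A, -0.021 for HADH, -0.11 for ACSL1, 0.12 for PDGFRA, -0.17 for HBB and 0.016 for EBF2. Without pigs Sample_731 and Sample_391 it was -0.044 for ATP5F1A, -0.011 for PLIN1, -0.14 for COL1A2, -0.11 for POSTN, -0.079 for COL11A1, 0.12 for CD2, 0.046 for NFKBIA, -0.061 for HBB and -0.094 for DUSP1.

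Leaving out 1 library at a time, the range was -0.037 to 0.35 for ACSL1, -0.030 to 0.21 for ATP5F1A, -0.12 to 0.025 for CAV1, -0.059 to 0.62 for CCL2, -0.023 to 0.14 for CNP, -0.11 to 0.85 for COL11A1 and -0.13 to 0.61 for COL1A2. The range so obtained was -1.20 to 0.10 for CPHL1, -0.15 to 0.12 for DUSP1, -0.14 to 0.11 for EBF2, -0.10 to 0.23 for ENG, -0.055 to 0.86 for FMOD, -0.18 to 0.89 for HBB and -0.26 to 0.062 for IGFBP6. For others it was -0.051 to 0.47 for KDR, -0.28 to 0.063 for KLF9, -2.86 to 0.089 for KRT15, -0.14 to 0.0079 for MEF2D, -0.26 to 0.14 for MITF, -0.026 to 0.66 for NGFR and -0.073 to 0.55 for PDK4. The last were -0.042 to 0.22 for PECAM1, -0.035 to 0.18 for PLIN1, -0.068 to 0.38 for POSTN, -0.047 to 0.13 for UBB and -1.01 to 0.079 for ZIC1.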
